A study of Mus musculus with 6 samples.

Results

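The transcripts of 10 AP-1 and BATF transcription factors were followed in cultured mouse macrophages: the Fos proteins Fos, Fosb, Fosl1 and Fosl2, the Jun proteins Jun, Junb and Jund, the ATF protein Atf3, and Batf and Batf2. They were taken by gene symbol from the deposited table, where all 10 were found among 55023 listed genes. The 6 libraries come from bone marrow-derived macrophages, which are grown from marrow precursors in culture, and were collected after 24 h. In 2 libraries the cells had received vehicle, in 2 LTα1β2, and in 2 LCL161 together with LTα1β2. LTα1β2 is the membrane form of lymphotoxin, a TNF-family ligand of the lymphotoxin beta receptor. LCL161 is a small molecule that antagonizes cIAP1 and cIAP2, ubiquitin ligases that restrain NF-kB-inducing kinase. LCL161 alone was not analysed here, so its addition is seen only on top of LTα1β2. The sources used here do not give strain, age, sex or doses, or say whether replicates came from separate animals or cultures. The p-values therefore reflect only how far these libraries differ, and part of that may be technical.

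AP-1 is a dimer of basic leucine zipper (bZIP) proteins. Jun proteins pair with each other or with Fos, ATF or BATF proteins, whereas Fos proteins need a Jun partner to bind DNA. Many members are immediate early genes, switched on within minutes by MAP kinase signalling, and Fos and Jun also take part in macrophage and osteoclast differentiation. BATF proteins lack a transactivation domain of their own and bind with Jun proteins, often next to an interferon regulatory factor (IRF) such as IRF4 or IRF8. Batf2 is known as an interferon-induced member in macrophages that works with IRF1.

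Promoter sequence was available for 8 of the 10 genes (RefSeq, GRCm38.p6), and the windows of the 3 most abundant Fos and Jun genes are shown because these genes moved in different directions. Each window is the 250 bases before the gene start that RefSeq gives, written 5′ to 3′ on the gene's strand. That start coincides with the outer end of the GENCODE gene printed below for Fos and Jun and differs from it for the other 6. Capitals mark matches to any of 6 motifs searched on both strands: AP-1 (TGANTCA), cyclic AMP response type (TGANNTCA), STAT (TTCNNNGAA), interferon response (GAAA and again GAAA, with any 2 bases between), kB type (GGG and T and CC, with any 2 bases at each gap) and serum response type (CCATA and AGG, with any 2 bases between). No window shown held more than 1 match.
Fos, chr12:85473640-85473889, plus strand: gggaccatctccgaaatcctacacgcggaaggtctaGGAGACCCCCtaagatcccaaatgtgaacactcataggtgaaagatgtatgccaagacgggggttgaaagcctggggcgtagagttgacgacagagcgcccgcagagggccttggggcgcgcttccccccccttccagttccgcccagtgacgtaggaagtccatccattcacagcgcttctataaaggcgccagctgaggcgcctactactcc
Jun, chr4:95052223-95052472, minus strand: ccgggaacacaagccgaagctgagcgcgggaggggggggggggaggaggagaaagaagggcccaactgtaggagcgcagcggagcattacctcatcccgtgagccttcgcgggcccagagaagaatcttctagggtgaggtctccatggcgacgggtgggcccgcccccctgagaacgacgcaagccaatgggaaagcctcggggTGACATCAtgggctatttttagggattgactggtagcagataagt
Junb, chr8:84978749-84978998, minus strand: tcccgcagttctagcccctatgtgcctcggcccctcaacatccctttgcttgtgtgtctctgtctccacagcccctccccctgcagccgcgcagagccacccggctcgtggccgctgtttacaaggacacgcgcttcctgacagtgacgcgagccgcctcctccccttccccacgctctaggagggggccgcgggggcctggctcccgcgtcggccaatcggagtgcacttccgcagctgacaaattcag
The Jun window held 1 match to the cyclic AMP response type, TGACATCA, starting 45 bases before the gene start, where 11.9% of 32851 windows of this length held one. The Fos window held 1 kB-type match, starting 214 bases before the gene start, against 15.9% of windows. None of the 6 motifs matched in the Junb, Atf3 or Batf window. None of the 8 windows held the AP-1 letters, which 6.75% of all windows held, or the STAT letters (7.02%). The interferon response letters matched in the Fosl2 window alone among the 8, against 2.98% of all windows, and the serum response letters in none (0.618%). A match describes letters in this window and is not a measured binding site. Sequence outside the 250 bases was not searched, so a motif without a match here may lie elsewhere.

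Total counts were 14718368 to 19049613 per library, and 18812 genes passed the filter on low counts. Macrophage markers were abundant throughout: the summed level of 8 markers was 27600 to 34000 CPM (counts scaled to library size with TMM factors) in the 6 libraries. Stromal markers were also present. Summed over 11 of them, they stood at 11100 and 7740 CPM with vehicle, 3060 and 4230 CPM with LTα1β2, and 851 and 899 CPM with LCL161 plus LTα1β2, and none of the 11 was at 0 in all libraries. In these bulk samples, fewer cells of a type and less RNA per cell cannot be told apart. The osteoblast sum was 34.1 to 89.2 CPM with vehicle and 6.79 to 18.9 CPM in the other libraries. Neutrophil markers summed to 289 and 383 CPM with vehicle, 650 and 502 CPM with LTα1β2, and 298 CPM in both libraries given both agents. Sums of dendritic cell, T and NK cell, B cell, endothelial and mast cell markers were at most 16.7, 12.5, 12, 16.1 and 3.75 CPM, with Tpsb2 at 0 throughout. One library stood apart from its replicate: of 9202 genes with a mean of at least 10 CPM, 99 (1.08%) differed at least 3-fold (on CPM + 0.5) between the LCL161 plus LTα1β2 libraries, and in all 99 replicate 1 was the lower. Among LTα1β2 libraries 1 gene did so, and among vehicle libraries 32. Jund was the only AP-1 or BATF gene among the 99.

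Batf2 showed the largest change of the 9 factors tested, rising 16.8-fold with LTα1β2 and a further 2.16-fold when LCL161 was added. Batf and Junb rose when LCL161 was added, by 2.05-fold and 1.73-fold, while neither passed the test with LTα1β2 alone. Fos and Fosl1 fell when LCL161 was added, and Fosl1 had already fallen with LTα1β2. Against vehicle, cells given both agents had higher Batf2, Batf and Junb and lower Fosl1, Fosl2 and Jun. A gene is said to have risen or fallen where edgeR's quasi-likelihood test gave a Benjamini-Hochberg adjusted p under 0.05 over all 18812 genes.

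Counted this way, 6 of the 9 tested factors changed with LTα1β2 against vehicle, 4 higher and 2 lower, where 23.4% of all genes tested changed (12.8% higher and 10.6% lower). With LCL161 plus LTα1β2 against LTα1β2 alone, 5 changed, 3 higher and 2 lower, against 25.7% of all genes (10.6% higher and 15.1% lower). With LCL161 plus LTα1β2 against vehicle, 6 changed, 3 in each direction, against 39.5% of all genes (18.4% higher and 21.1% lower). The median log2 change of the 9 was 0.35, -0.27 and 0.41 in these comparisons, beside -0.039, 0.0045 and 0.047 over all genes tested. The comparisons share libraries and are not independent of each other. Groups that do not overlap were common at this group size: in the 3 comparisons 63.4%, 67.8% and 73.8% of all genes tested had both libraries of a group on the same side of the other group. The genes were chosen with earlier results of these data known, so none of these shares is a test of the family.

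**Figure D1:**
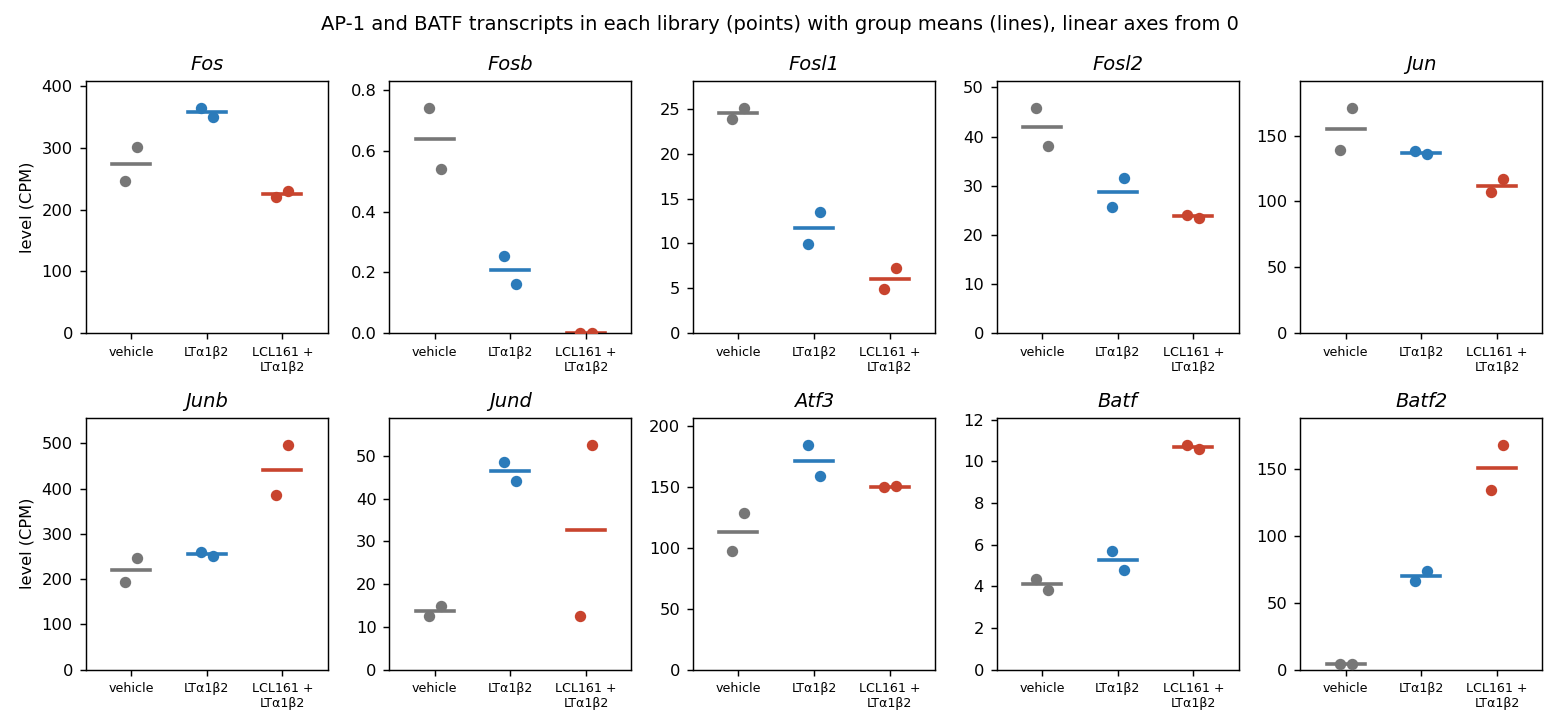
Level of each factor in CPM (vertical axis, linear from 0, scaled per gene) in the 6 libraries, grouped by treatment; points are libraries and lines are group means. Batf2 went from 4.16 CPM with vehicle to 69.9 and 151 CPM, Fosl1 stepped down from 24.5 to 11.7 and 6.08 CPM, and the 2 LCL161 plus LTα1β2 libraries of Jund lie far apart.

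Among the Fos proteins, Fos itself is the classical immediate early partner of Jun. Its level was 246 and 301 CPM in the vehicle libraries, 365 and 351 CPM with LTα1β2, and 221 and 230 CPM with LCL161 plus LTα1β2. Both LTα1β2 libraries lay above the other 4, and the libraries given both agents lay lowest. Adding LCL161 lowered Fos by 1.59-fold (log2 change -0.67, SE 0.12, edgeR adjusted p = 0.00527), a call that held in all 13 alternatives, between -0.81 and -0.62. The rise with LTα1β2 alone was small (log2 change 0.39, SE 0.11, edgeR adjusted p = 0.0451). It did not pass without vehicle replicate 1 (log2 change 0.25, adjusted p = 0.268), LTα1β2 replicate 1 (0.127) or LTα1β2 replicate 2 (0.146), nor with total-count scaling (0.178), a GC correction (0.076) or a replicate block (0.0518). Cells given both agents had a log2 change of -0.28 against vehicle (SE 0.11, edgeR adjusted p = 0.0907), which did not pass. This change passed in 4 of 13 alternatives: total-count scaling, no filter on low counts, DESeq2 and without vehicle replicate 1 (log2 change -0.47). Across the 13 it lay between -0.59 and -0.17. Of 6 neutrophil markers tested, 3 rose with LTα1β2 (12.8% of all genes did), while the other 3 had a log2 change below 0. When LCL161 was added, 3 fell (15.1% of all genes) and all 6 had a log2 change below 0. The part of these markers in the changes of Fos was not tested. The gene lies on chromosome 12 at 85473890 to 85477273 in GRCm38 (GENCODE M21), with 4 exon blocks and no exon overlapping another gene.

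Fosl1 (Fra-1) is a Fos protein without a transactivation domain that is prominent in proliferating and mesenchymal cells. Its level was 23.9 and 25.1 CPM with vehicle, 9.95 and 13.5 CPM with LTα1β2, and 4.96 and 7.2 CPM with LCL161 plus LTα1β2. The 3 groups were ordered without overlap, each step lowering it by about as much as the other. With LTα1β2 it fell by 1.06 on the log2 scale (SE 0.20, edgeR adjusted p = 0.00876), and with LCL161 added by 0.96 (SE 0.22, adjusted p = 0.0182). Across both steps it ended 4.03-fold lower than with vehicle (log2 change -2.01, SE 0.22, edgeR adjusted p = 0.000241). The call for LTα1β2 was lost without LTα1β2 replicate 1 (log2 change -0.78, adjusted p = 0.0806). That for LCL161 was lost without LTα1β2 replicate 2 (adjusted p = 0.114) or LCL161 plus LTα1β2 replicate 1 (0.067). Most stromal markers fell in the same 2 steps, 8 of 10 tested in each, where 10.6% and 15.1% of all genes fell. Their medians were -1.34 and -2.03 on the log2 scale, with 1 and 2 markers above 0. Their part in the fall of Fosl1 was not tested. The gene lies on chromosome 19 at 5447547 to 5455946, its exons overlap those of Ccdc85b on the other strand, and its counts were whole in 1 of 6 libraries, so its reads may be divided with another gene.

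Fosl2 (Fra-2), a related Fos protein, had 45.8 and 38.0 CPM with vehicle, 25.7 and 31.6 CPM with LTα1β2, and 24.0 and 23.5 CPM with both agents. Vehicle libraries were the highest, and the remaining 4 lay close together. It fell by 0.55 on the log2 scale with LTα1β2 (SE 0.14, edgeR adjusted p = 0.0301) and by 0.82 with both agents against vehicle (SE 0.15, adjusted p = 0.00335). The step from LTα1β2 to both agents did not pass (log2 change -0.27, SE 0.15, edgeR adjusted p = 0.208). Its LTα1β2 call was lost without vehicle replicate 1 (log2 change -0.41, adjusted p = 0.229), without LTα1β2 replicate 1 (-0.33, adjusted p = 0.261) and with a replicate block (adjusted p = 0.0502). The gene lies on chromosome 5 at 32135801 to 32157842, with no exon overlapping another gene. Most stromal markers fell in both comparisons in which Fosl2 fell, and also when LCL161 was added, and their part was not tested.

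Fosb was near the limit of detection and was left out by the filter on low counts. It had 16 and 9.5 reads with vehicle, 4 and 3 with LTα1β2, and 0 in both libraries given both agents. Vehicle libraries were thus the only ones with more than 4 reads. Pooled over the group, vehicle stood at 0.648 CPM, at least 5.78-fold higher than the level of cells given both agents, taken at a floor of 3 reads over both libraries. With no filter on low counts its edgeR adjusted p was 0.000443 for both agents against vehicle, 0.378 for LTα1β2 against vehicle and 0.0555 for both agents against LTα1β2. The gene lies on chromosome 7 at 19302696 to 19310051.

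Of the Jun proteins, Jun is the strongest activator and the founding member of the family. Its libraries read 139 and 171 CPM with vehicle, 138 and 136 CPM with LTα1β2, and 107 and 117 CPM with both agents. Those given both agents were the lowest, and LTα1β2 lay just under the lower vehicle library. Neither single step passed: the log2 change was -0.17 (SE 0.12, edgeR adjusted p = 0.358) with LTα1β2 and -0.29 (SE 0.12, adjusted p = 0.114) when LCL161 was added. Against vehicle, cells given both agents had 1.38-fold less Jun (log2 change -0.47, SE 0.12, edgeR adjusted p = 0.0189). That call was lost without vehicle replicate 2 (log2 change -0.35, adjusted p = 0.0922) and without LCL161 plus LTα1β2 replicate 1 (adjusted p = 0.0747). Scaling by total counts, which shifted the median of all genes from -0.039 to -0.23, made the LTα1β2 step pass (log2 change -0.36, adjusted p = 0.0365). The LCL161 step passed with total-count scaling (adjusted p = 0.0225), no low-count filter (0.0128) and DESeq2 (0.0473). The gene, a single exon on chromosome 4 at 95049034 to 95052222, overlaps the antisense gene Junos, and whether counting used strand is not given in the sources used here.

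Junb, a Jun protein that can oppose Jun and pairs with BATF proteins, moved the other way. It measured 194 and 247 CPM with vehicle, 260 and 252 CPM with LTα1β2, and 387 and 497 CPM with both agents. Both libraries given LCL161 lay well above the other 4. The LTα1β2 step did not pass (log2 change 0.22, SE 0.16, edgeR adjusted p = 0.37). Adding LCL161 raised Junb (log2 change 0.79, SE 0.16, edgeR adjusted p = 0.00931), and against vehicle it was 2.01-fold higher (log2 change 1.01, SE 0.16, adjusted p = 0.00164). The first of these calls was lost without LTα1β2 replicate 1 (log2 change 0.75, adjusted p = 0.0542) and without LTα1β2 replicate 2 (0.73, adjusted p = 0.0834), and the second held in all 13 alternatives. Junb lies on chromosome 8 at 84974484 to 84978718, and its exons overlap those of Prdx2 on the other strand.

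Jund, the Jun protein usually described as constitutively expressed, could not be placed in the group given both agents. Its level was 12.6 and 14.8 CPM with vehicle and 48.5 and 44.2 CPM with LTα1β2, but 12.6 and 52.6 CPM in cells given both agents. Replicate 1 of the last group thus sat at the vehicle level and replicate 2 above the LTα1β2 level. The rise with LTα1β2 was 3.38-fold (log2 change 1.76, SE 0.53, edgeR adjusted p = 0.0485). It did not pass when any of the 4 libraries was left out (adjusted p = 0.222 and 0.141 without vehicle replicates 1 and 2, and 0.133 and 0.132 without LTα1β2 replicates 1 and 2) or with DESeq2 (0.0998). Against LTα1β2, cells given both agents had a log2 change of -0.51 (SE 0.51, edgeR adjusted p = 0.484), which was 0.17 without LCL161 plus LTα1β2 replicate 1 and -1.94 without replicate 2 (adjusted p = 0.000172). Against vehicle the change of 1.25 (SE 0.53, adjusted p = 0.0977) became 1.93 without replicate 1 (adjusted p = 2.35e-05) and -0.18 without replicate 2.

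The Jund transcript is unusually rich in G and C: at 67.1% it exceeded 99.6% of the genes tested with a known value, and Junb, at 62.6%, exceeded 98.6%. Over the 116 tested genes with a GC content of 65% or more, the median log2 difference of replicate 1 from replicate 2 was -0.35 for LCL161 plus LTα1β2, -0.013 for vehicle and -0.078 for LTα1β2. Over these genes the median log2 change was 0.20 with LTα1β2 and -0.35 when LCL161 was added. Jund itself had 12.6 and 52.6 CPM in the libraries given both agents, and the part of GC content in this gap was not tested. With levels corrected for GC content, a setting added with the data in view, the change of Jund was 1.60 with LTα1β2 (edgeR adjusted p = 0.0322) and -0.11 when LCL161 was added (adjusted p = 0.865), and 1.49 for both agents against vehicle (adjusted p = 0.0288). That of Junb when LCL161 was added was 1.19 (adjusted p = 0.000585). Jund is a single exon on chromosome 8 at 70698949 to 70700616, overlapping Gm11175 on the other strand, and its counts were whole in 2 of 6 libraries.

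Atf3 is a stress-induced bZIP factor known to dampen inflammatory gene expression in macrophages. The libraries held 97.4 and 129 CPM with vehicle, 185 and 159 CPM with LTα1β2, and 150 and 151 CPM with both agents. Every treated library lay above both vehicle libraries. With LTα1β2 it rose 1.52-fold (log2 change 0.60, SE 0.15, edgeR adjusted p = 0.0231). The call was lost without vehicle replicate 1 (log2 change 0.40, adjusted p = 0.131), LTα1β2 replicate 1 (adjusted p = 0.099) or LTα1β2 replicate 2 (0.0518), and with total-count scaling (0.0532). Adding LCL161 gave a log2 change of -0.19 (SE 0.15, edgeR adjusted p = 0.355), and both agents against vehicle 0.41 (SE 0.15, adjusted p = 0.0612). The latter passed without vehicle replicate 2 (log2 change 0.58, adjusted p = 0.0208), with at least 1 CPM in 2 libraries (adjusted p = 0.039), with no filter on low counts (0.0482) and with limma voom (0.0455). Atf3 lies on chromosome 1 at 191170296 to 191218039, with no exon overlapping another gene.

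Batf, best known from lymphocytes and dendritic cells, was scarce. It had 94 and 71 reads (4.35 and 3.84 CPM) with vehicle, 89 and 90 reads (5.68 and 4.81 CPM) with LTα1β2, and 148 and 139 reads (10.8 and 10.6 CPM) with LCL161 plus LTα1β2. The pair given both agents stood apart from the other 4. The LTα1β2 step did not pass (log2 change 0.35, SE 0.18, edgeR adjusted p = 0.202). Adding LCL161 raised it by 1.03 on the log2 scale (SE 0.17, edgeR adjusted p = 0.00422), and both agents together by 1.38 against vehicle (SE 0.17, adjusted p = 0.0005), and both calls held in all 13 alternatives. Dendritic cell markers summed to 6.11 and 7.35 CPM with vehicle, 13.0 and 12.2 CPM with LTα1β2, and 16.7 and 15.2 CPM with both agents. Of these 5 markers, Clec9a alone rose with LTα1β2, none passed when LCL161 was added, and Clec9a, Xcr1 and Flt3 rose against vehicle. Their part in the rise of Batf was not tested. Batf lies on chromosome 12 at 85686669 to 85709087, close to Fos on the same strand, with no exon overlapping another gene.

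Batf2 had 90 and 77 reads with vehicle, 1035 and 1378 after LTα1β2, and 1831.75 and 2197 in cells given both agents. In CPM these were 4.17 and 4.16, then 66.0 and 73.7, then 134 and 168. The 3 groups were ordered without overlap, and the first step was far larger than the second. LTα1β2 raised it by 4.07 on the log2 scale (SE 0.16, edgeR adjusted p = 4.39e-06), and LCL161 by a further 1.11 (SE 0.13, adjusted p = 0.000897). Both agents against vehicle gave 5.18 (SE 0.16, edgeR adjusted p = 7.95e-07). All 3 calls held in all 13 alternatives, with log2 changes from 3.88 to 4.22, from 0.87 to 1.31 and from 4.86 to 5.32. Batf2 lies on chromosome 19 at 6140983 to 6172476, and its exons overlap those of Arl2 on the other strand.

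**Figure D2:**
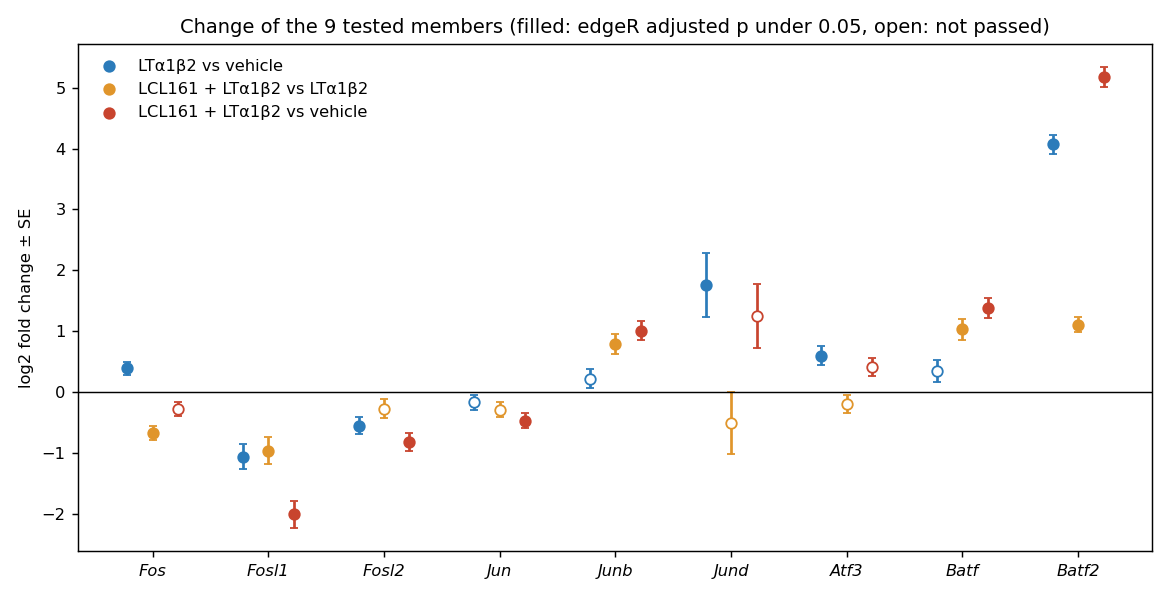
Log2 fold change (vertical axis) of the 9 tested factors in the 3 comparisons, with bars of 1 SE; filled points passed edgeR's test and open points did not. Batf2 reached 5.18 with both agents against vehicle, Fosl1 lies below 0 in all 3 comparisons, and the SE of Jund, up to 0.53, is the widest.

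Levels of different genes were compared per kilobase of exon, as CPM divided by the length of all annotated exons. In the vehicle libraries the order of the mean levels was Fos (116 ± 16.4 CPM per kb, SD, n = 2), Junb (95.7 ± 16.4), Atf3 (52.7 ± 10.6), Jun (48.5 ± 7.15), Fosl1 (12 ± 0.414), Jund (8.21 ± 0.94), Fosl2 (4.33 ± 0.565), Batf (2.91 ± 0.259), Batf2 (1.65 ± 0.00131) and Fosb (0.103 ± 0.0227). The libraries of Fos and Junb overlapped there, as did those of Atf3 and Jun. With LTα1β2, Batf2 climbed from the ninth to the sixth place at 27.7 ± 2.14 CPM per kb, overlapping Jund at 27.8 ± 1.84. Batf and Fosl2, next to each other at 3.73 ± 0.436 and 2.96 ± 0.43 CPM per kb, did not overlap. With both agents Junb came first at 192 ± 33.8 CPM per kb, ahead of Fos at 95.8 ± 2.58, and Batf2, at 59.9 ± 9.7, stood in the fourth place behind Atf3 at 69.8 ± 0.524. Fosl1 and Fosl2, at 2.99 ± 0.778 and 2.45 ± 0.0361 CPM per kb, were not separable there, nor were Jund (19.6 ± 17.0) and Batf (7.63 ± 0.0774). These SDs rest on 2 libraries each. The ranks also depend on the length used. Batf2 has 2522 bases of annotated exon but a longest transcript of 1584 bases, and Atf3 has 2154 and 1984. Divided by the longest transcript, Batf2 (mean 151 CPM with both agents) would rank ahead of Atf3 (150 CPM).

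The make-up of the summed pool shifted accordingly. Summed over the 10 genes, the level was 306 and 378 CPM per kb with vehicle, 464 and 445 with LTα1β2, and 438 and 532 with both agents. Fos proteins made up 39.6% and 38.1% of that sum with vehicle, 35.1% and 35.8% with LTα1β2, and 22.6% and 19.4% with both agents. Fos transcripts proper carried most of this, with 34% of the sum in vehicle and 19.9% with both agents. Jun proteins held 44.1% and 44.9%, then 39.9% and 40.2%, then 47.8% and 53.4%. Within them, Junb went from 27.9% in vehicle to 39.5% with both agents and Jun from 14.2% to 7.27%. Batf and Batf2 together went from 1.55% and 1.16% through 6.51% and 7.34% to 13.8% and 14.0%. Atf3 kept between 13.2% and 18.5% in the 6 libraries. These are shares of transcript levels and were not tested, and the share of the Jun proteins includes the uneven Jund libraries. Like the ranks, the shares depend on the exon lengths used.

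**Figure D3:**
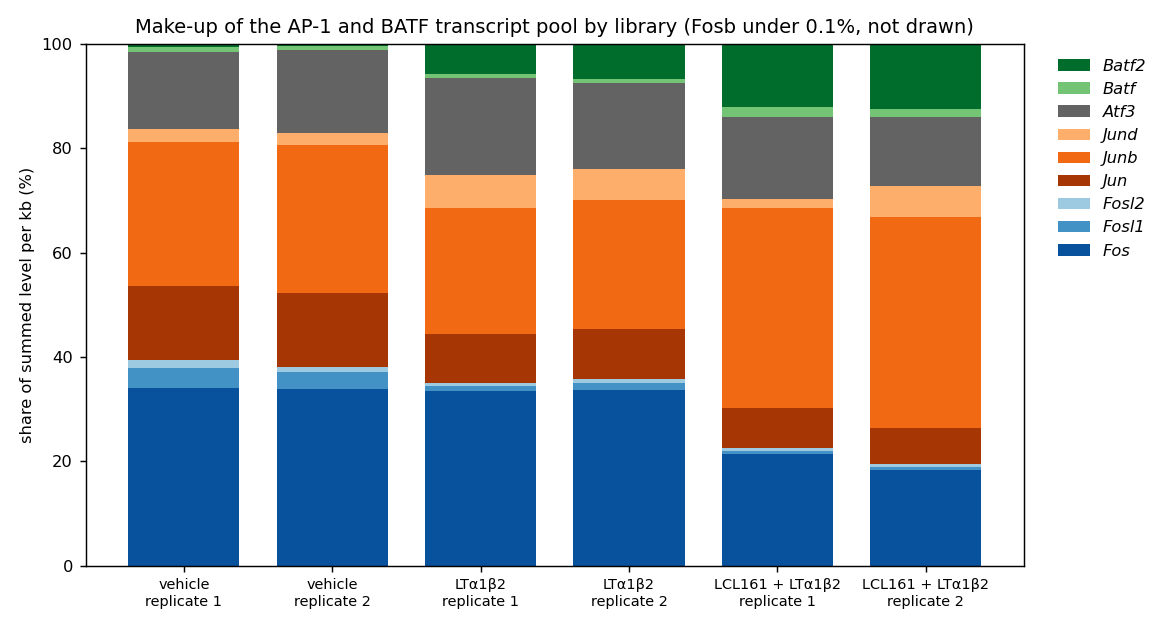
Share of each factor (vertical axis, percent) in the summed level per kilobase of all 10, for each of the 6 libraries; each bar is a library and Fosb, at no more than 0.0387%, is not drawn. The Batf2 segment grows from 0.54% and 0.436% with vehicle to 12.1% and 12.5% with both agents, while that of Fos shrinks from 34.1% and 33.8% to 21.4% and 18.3%.

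The IRF proteins known to bind beside BATF factors were read from a list of 3. Irf1, the partner named for Batf2, rose from 43.9 ± 2.4 to 990 ± 62.9 CPM (SD, n = 2) with LTα1β2 (log2 change 4.50, SE 0.12, edgeR adjusted p = 5.92e-07) and stood at 1120 ± 74 CPM with both agents, a step that did not pass (log2 change 0.18, adjusted p = 0.232). Irf8, a lineage factor of macrophages, rose from 132 ± 27 to 443 ± 9.37 CPM with LTα1β2 (log2 change 1.75, adjusted p = 0.000224) and had 368 ± 35.3 CPM with both agents (log2 change against LTα1β2 -0.27, adjusted p = 0.209). Irf4 stayed at the edge of detection, with 8 to 11 reads in the vehicle and LTα1β2 libraries and 17 and 18 with both agents. Its rise against vehicle (log2 change 1.38, edgeR adjusted p = 0.0458) did not pass when any of the 4 libraries was left out. When LCL161 was added, Irf4 had a log2 change of 1.38 (SE 0.47, edgeR adjusted p = 0.0654), which did not pass. Batf2 and Batf rose in that comparison, with log2 changes of 1.11 and 1.03. None of the 3 IRF genes passed there, where 25.7% of all genes changed. Whether the steps differ between these genes was not tested.

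Other bZIP genes were counted in a list of 27, all tested. With LTα1β2, 10 rose (12.8% of all genes did) and 1 fell (10.6%), Maf (log2 change -0.61), and the median was 0.26 (all genes -0.039). Those with the smallest p were Creb5 (log2 change 0.91, edgeR adjusted p = 0.0015), Mafk (0.62, adjusted p = 0.00451), a small Maf protein, and Cebpb (5.58, adjusted p = 0.00734), a C/EBP factor of myeloid cells. Batf3, the BATF factor of cross-presenting dendritic cells, had 12 and 17 reads with vehicle and 36 and 56 with LTα1β2 (log2 change 1.85, adjusted p = 0.0103). Without vehicle replicate 1 the count of higher genes was 1, and with the other libraries left out in turn it was 3 to 6. Creb5 was the only one of the 4 named here to pass with each library left out. When LCL161 was added, 10 changed (25.7% of all genes). Of these, 5 rose (Nfe2l1, Maff, Creb1, Nfe2l2 and Ddit3) and 5 fell, Cebpd, Maf, Cebpa and Nfil3 among them, with a median of -0.09. Nfe2l1 rose by 0.67 on the log2 scale (SE 0.10, edgeR adjusted p = 0.00238) and Cebpd fell by 1.33 (SE 0.21, adjusted p = 0.0035), and both passed with each library left out. Against vehicle 14 changed (39.5% of all genes): 11 rose and 3 fell, Maf and Cebpd among them, with a median of 0.24.

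Other immediate early genes were called in both directions in each comparison. Of 20 listed, 19 were tested. With LTα1β2 9 changed (23.4% of all genes did), with a median of -0.37. Klf2, Zfp36, Csrnp1, Nr4a2 and Klf6 rose and Ier3, Egr2, Rhob and Myc fell. Without vehicle replicate 1 these rises did not pass, and not all of the falls did. With any other library of these groups left out, not all of the rises passed. Ier3, Egr2 and Rhob led by p, with log2 changes of -0.93, -1.08 and -0.90 and edgeR adjusted p of 0.00139, 0.00426 and 0.00543. When LCL161 was added, 9 fell (15.1% of all genes) and Egr2, Gadd45b and Csrnp1 rose (10.6%), with a median of -0.67 against 0.0045 over all genes. Egr1 and Egr2, related zinc finger factors, went opposite ways in that step. Egr1 fell from 110 ± 4.6 to 57.8 ± 2.57 CPM (edgeR log2 change -0.93, SE 0.11, adjusted p = 0.000857), and Egr2 rose from 8.2 ± 1.85 to 52.7 ± 5.45 CPM (log2 change 2.69, SE 0.17, adjusted p = 9.18e-05). Gadd45b, a stress gene, rose by 1.63 (adjusted p = 0.000414) and Btg2, an antiproliferative gene, fell by 1.40 (adjusted p = 0.000428). These 4 passed with each library left out. Against vehicle 9 fell (21.1% of all genes) and 4 rose (18.4%), namely Egr2, Csrnp1, Gadd45b and Klf6, with a median of -0.59, led by Btg2 (-1.83) and Ier2 (-1.59).

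Products of MAP kinase genes activate AP-1. Of 22 such genes, 8 changed with LTα1β2 (23.4% of all genes did): 7 rose and Mapk11 fell, with a median of 0.30. Leading by p were Map3k5, the stress kinase ASK1 (log2 change 1.98, edgeR adjusted p = 0.000897), Mapk9, which encodes JNK2 (0.70, adjusted p = 0.0015), and Map3k3 (2.19, adjusted p = 0.0129). Map3k3 passed in 1 of 4 fits with a library left out, and the first 2 in all 4. When LCL161 was added, Map2k1 rose (0.58, adjusted p = 0.00425) and Map3k5 (-1.66, adjusted p = 0.00183) and Mapk3 (-0.37, adjusted p = 0.0436) fell, 3 of 22 in all (25.7% of all genes), with a median of -0.08. Against vehicle 7 changed (39.5% of all genes): 4 rose, Map2k1, Mapk9 and Map3k8 among them, and 3 fell (Mapk3, Mapk11 and Map3k2). Of 9 MAP kinase phosphatases, 5, 4 and 5 changed in the 3 comparisons, read against the same shares of all genes. Dusp4, Dusp6 and Dusp1 fell and Dusp7 and Dusp2 rose with LTα1β2. Neither rise passed with any of the 4 libraries left out, and the falls did not all pass in each such fit. With LCL161 added, Dusp6, the ERK phosphatase, fell further from 56.9 ± 5.98 to 26.1 ± 0.575 CPM (edgeR log2 change -1.13, SE 0.12, adjusted p = 0.000495) together with Dusp7, while Dusp4 (1.38, adjusted p = 0.00126) and Dusp16 rose. Against vehicle Dusp6, Dusp1 and Dusp8 fell and Dusp2 and Dusp16 rose. Neither of these rises passed without vehicle replicate 2. Dusp2 had 11 reads in each vehicle library but 22 and 145 in the libraries given both agents, which thus lay far apart. Medians of the phosphatase list were -0.10, -0.39 and -0.12.

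Genes known as AP-1 targets, all of which have other regulators too, split as well. Of 21, with LTα1β2 8 fell (10.6% of all genes did) and 3 rose (12.8%), namely Tnf, Itgax and Ccl2, with a median of 0.03. Cxcl2, a neutrophil chemokine (log2 change -2.47, edgeR adjusted p = 2.85e-05), Tnf (1.92, adjusted p = 5.26e-05) and Ptgs2, the inducible cyclooxygenase (-1.24, adjusted p = 0.000305), led by p. When LCL161 was added 9 rose (10.6% of all genes) and 4 fell (15.1%), namely Vegfa, Nfatc1, Ctsk and Timp1, with a median of 0.60 against 0.0045 over all genes. Ptgs2 rose from 51.4 ± 6.46 to 603 ± 8.47 CPM (edgeR log2 change 3.55, SE 0.12, adjusted p = 7.84e-06), Cxcl2 by 3.45 (adjusted p = 1.53e-05) and Tnf from 89.3 ± 9.55 to 424 ± 33.9 CPM (2.25, adjusted p = 4.68e-05). These rose in the step in which Fos and Fosl1 fell and Junb, Batf and Batf2 rose. Against vehicle 10 rose (18.4% of all genes) and 6 fell (21.1%), with a median of 0.45, led by Tnf (4.17), Ptgs2 (2.31) and Itgax (2.59). Timp1 and Ctsk fell in all 3 comparisons, as did most stromal markers, whose part in these falls was not tested.

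**Figure D4:**
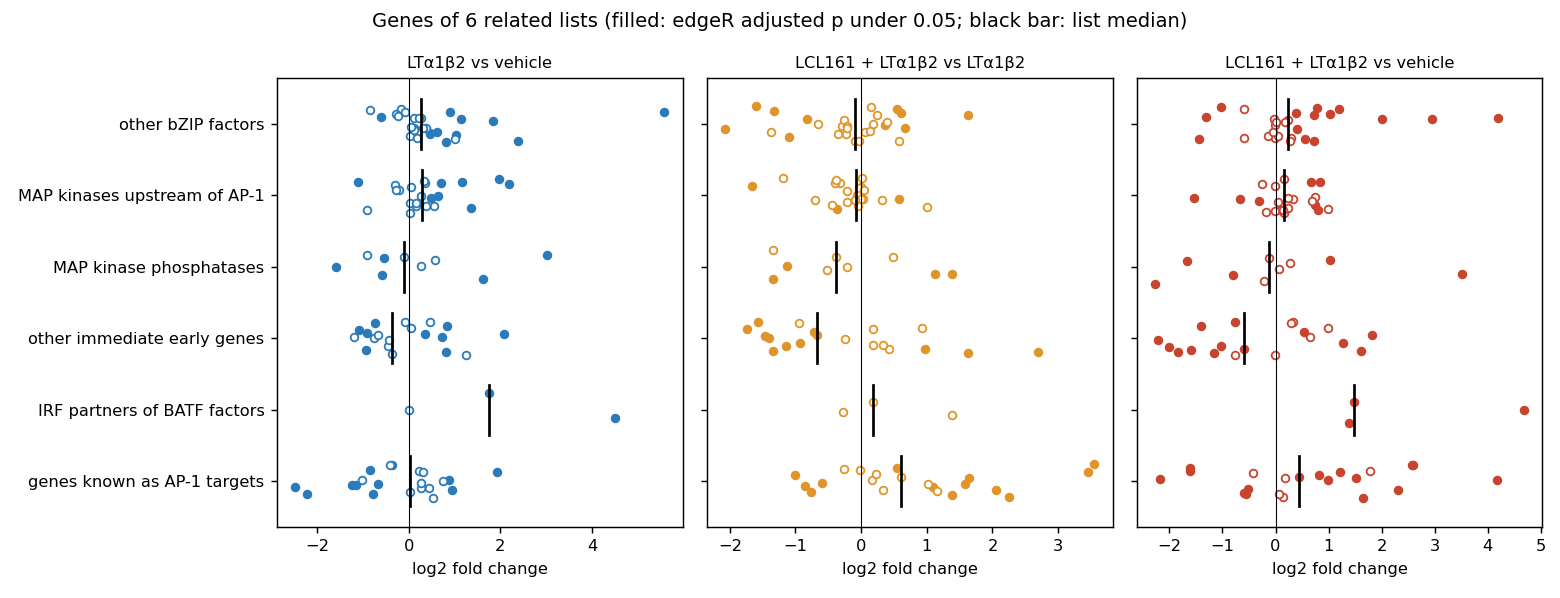
Log2 fold change (horizontal axis) of each tested gene of 6 related lists (rows) in the 3 comparisons (panels); filled points passed edgeR's test, open points did not, and black bars are list medians. The list medians lie between -0.67 and 0.60 except for the 3 IRF genes, at 1.75, 0.18 and 1.48, and each of the other lists holds genes on both sides of 0.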

How the data were processed

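RNA was sequenced from 6 libraries, 2 per group, and groups and replicate numbers were taken from the sample titles. The authors deposited expected counts per gene symbol, not normalized, with 66.6% of the non-zero values whole. STAR 2.7.3a, DESeq2 1.26.0 and GRCm38 are named in the submitters' processing notes. For the counting program, its annotation and its use of strand, the labels name nothing. Deposited counts were rounded, and filterByExpr (minimum 10 reads) kept 18812 of 55023 genes. The 3 comparisons were fitted over all 6 libraries in edgeR 4.0.16 (R 4.3.3) with TMM factors, glmQLFit and glmQLFTest (two-sided) and Benjamini-Hochberg adjustment. Residual degrees of freedom were 3, and the biological coefficient of variation came to 13.6%. SE is the log2 change divided by the root of F, without sign. The fit was run on simulated counts drawn independently for each gene and library. Such counts cannot show how the fit handles the uneven libraries given both agents. Floors cover counting error only, whereas SE and SD also take in the spread between libraries.

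The genes, the lists and the rule for names were chosen with earlier results of these data known. The rule names all 10 factors, up to 3 called genes with the smallest p and no overlap between groups per list, every called gene where 5 or fewer were called in a direction, and all of a list of 3, and other names were chosen after their values were seen. A few list genes that the rule names are not reported here. GC content is that of the longest GENCODE M21 transcript (98.5% of tested genes). Alternatives were relative log expression factors, total-count scaling, DESeq2 1.42.0, limma 3.58.1 voom, 2 other filters, only the groups compared, a replicate block, each library left out and, added after the data were seen, a GC correction by loess (span 0.3).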

Additional observations from a re-analysis of the deposited data

How the results depend on the processing

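Leaving out 1 library at a time changed the number of genes past the threshold most. It ran from 1930 to 2807 for LTα1β2 against vehicle (4401 with all libraries), from 2332 to 4604 for LCL161 plus LTα1β2 against LTα1β2 (4832) and from 4885 to 6304 for LCL161 plus LTα1β2 against vehicle (7431). Of the AP-1 and BATF factors, 1 to 5, 3 to 6 and 7 passed in these fits, against 6, 5 and 6. Without LTα1β2 replicate 1, Batf2 alone passed for LTα1β2 against vehicle. The cause of these shifts was not tested, beyond the smaller number of libraries. The filter on low counts was applied anew in each such fit, so these counts can include Fosb, which was not tested with all libraries. With no filter beyond 1 read, 10 factors passed for LCL161 plus LTα1β2 against vehicle, since Fosb was then tested and Fos, Jund and Atf3 also passed. Total-count scaling moved the share of higher genes among those called from 54.8% to 33%, from 41.2% to 28% and from 46.6% to 24.6%, and the median of all genes to -0.23, -0.12 and -0.26. DESeq2 gave shares of 57.7%, 26.1% and 35.7%. The other settings kept each count within 1.5 times. Whether the replicate number pairs libraries is not given in the sources used here. Between groups, the difference of replicate 1 and 2 correlated across genes at 0.037, 0.12 and 0.14. These weak correlations cannot decide whether libraries shared an animal or culture. With the number as a replicate block, 4144, 4629 and 7308 genes and 4, 5 and 6 factors passed, and Fos (adjusted p = 0.0518) and Fosl2 (0.0502) did not pass for LTα1β2 against vehicle. Depth limits Fosb, Irf4 and Batf3, which had at most 56 reads in a library.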

Other observations

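Jund shared its uneven pattern with a few genes of the related lists, which were picked out after their values were seen. Cebpb, whose transcript has a GC content of 67.2%, had 53 and 56 reads with vehicle, 2072.67 and 2409 after LTα1β2, and 108 and 1206.5 in cells given both agents. Jdp2, a bZIP repressor that pairs with Jun proteins, had 76 and 106.5 reads with vehicle, 358.5 and 467 with LTα1β2, and 202.5 and 733.5 with both agents. With Map3k3 and Srf, these were the list genes among the 99 with a 3-fold or larger gap (on CPM + 0.5) between the libraries given both agents. Dusp7, at 7.52 and 23.4 CPM there, lay just outside this limit. The median GC content of the 99 was 54.7%, against 49.5% over all 9202 genes with a mean of at least 10 CPM. For the 32 genes with such a gap between the vehicle libraries it was 43.1%. The part of GC content in these gaps was not tested. The calls of Cebpb and Jdp2 for both agents against vehicle, with log2 changes of 4.19 and 2.95, therefore rest on libraries that differ widely within the group.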
